A study of Mus musculus with 6 samples.

Results

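The genes described here are the enzymes and transporters of glycolysis, lactate export and the pentose phosphate pathway, 33 of the 54532 genes measured. They were taken by symbol from a fixed list that runs from glucose entry to lactate export and includes both arms of the pentose phosphate branch. The list matched 34 entries, because the symbol Aldoa stands for 2 gene models, and the model that carries the aldolase A reads was used. RNA was sequenced in 6 samples of primary macrophages from mice of genotype WT. In 3 samples the cells had received vehicle and in the other 3 rmMETRNL in vitro for 6 h. METRNL is the symbol of meteorin-like, a secreted protein, and the labels do not spell out the agent further. All 6 samples were then challenged with the fungus Candida albicans for 6 h, so both groups carry the challenge and no unchallenged sample is part of the comparison. Nothing in the labels tells if a group's 3 samples are separate animals or separate cultures, so each p reflects only how much these libraries vary, and that variation may be technical. The table columns carry short codes, and the 3 whose code holds the letter r were read as rmMETRNL, so the direction of every difference rests on that reading.

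Glycolysis splits glucose into pyruvate in the cytosol, and lactate dehydrogenase can turn the pyruvate into lactate, which monocarboxylate transporters carry out of the cell. The pentose phosphate pathway branches off at glucose phosphate: its oxidative arm makes NADPH, which feeds the oxidative burst and glutathione recycling, and its non-oxidative arm exchanges sugars with glycolysis. Macrophages that sense fungi or bacteria are known to take up more glucose and release more lactate, and the promoters of several glycolytic genes are known targets of the hypoxia-inducible factor HIF-1.

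Expression was given as FPKM, fragments for each kilobase of a gene's length after libraries are brought to one size, and the reads recovered from the values summed to between 13235001 and 18145733 per library. A gene was tested if its mean over the 6 libraries was at least 1 FPKM, and 9867 genes were. Differences are rmMETRNL minus vehicle on the log2(FPKM + 1) scale, which understates differences of low genes, and the test was limma, two-sided, with Benjamini-Hochberg adjustment over all genes tested. All 8 macrophage markers had a mean over the 6 libraries above 1 FPKM. They summed to 6980.2 to 7662 FPKM with vehicle and 7223 to 7462 FPKM with rmMETRNL, most of it Lyz2. Single macrophage markers were not all level. Adgre1 (110.6 to 121.6 FPKM with vehicle, 127.9 to 133.6 with rmMETRNL) and Csf1r (92.8 to 96.4, 97.7 to 101.9) lay higher without overlap. Cd68 (1400 to 1497, 1328 to 1384) and Mertk (2.736 to 2.743, 1.65 to 2.46) lay lower without overlap, and the others overlapped. Retina markers were checked because the extraction text speaks of retinas: 0 of 6 reached a mean of 1 FPKM. Markers of other cell types were low but not all level between groups. The 7 neutrophil markers summed to 105 to 114 FPKM with vehicle and 117 to 125 FPKM with rmMETRNL, nearly all of it S100a8 and S100a9, with Elane at 0 and Ly6g, Camp, Ngp and Mpo under 1 FPKM. The 5 B cell markers summed to 5.07 to 6.03 FPKM with vehicle and 6.05 to 6.57 FPKM with rmMETRNL, and the 7 T and NK cell markers to 2.45 to 2.98 FPKM with vehicle and 2.88 to 3.71 FPKM with rmMETRNL, with the T and NK cell ranges overlapping. Fibroblast and mesothelial sums overlapped between groups and stayed under 10 FPKM, and no red cell or skeletal muscle marker reached a mean of 1 FPKM. rmMETRNL library 3 stood apart in a technical measure: across genes, its deviation from the mean correlated with gene length with a Spearman coefficient of 0.313, against -0.168 to -0.0212 in the other 5 libraries. The part of these marker and length differences in the results was not tested, with 1 exception. The log2 differences of tested genes and their medians by step were also computed with the relation to gene length taken out of every library. Shares of FPKM within a gene family and sums of FPKM over a step were not.

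No gene of the pathways passed the test, and no gene of the whole table did: limma called 0 of 31 tested members and 0 of 9867 genes (0%) at an adjusted p of 0.05. The lowest adjusted p was 0.216 among the members, for Hk2, and 0.103 among all genes. At an unadjusted p of 0.05 by limma, 7 members stood higher with rmMETRNL, against a background of 7.54% of all genes tested, and 2 stood lower, against 7.13%. These are 22.6% and 6.45% of the 31 tested members: Hk2, Slc16a3, Hk1, Pfkfb3, Slc2a3, Pgam1 and Slc16a1 on the higher side, and Aldoa and Taldo1 on the lower. With limma voom on the recovered reads, 0 members and 61 genes (0.618%) passed an adjusted p of 0.05, and the lowest adjusted p of a member was 0.0888. In 9 members all 3 rmMETRNL libraries lay above all 3 vehicle libraries, against 10.9% of all genes, and in 2 members they lay below, against 10.6%. The 9 are the glucose transporters Slc2a1 and Slc2a3, the hexokinases Hk1 and Hk2, the regulator Pfkfb3, the enzymes Tpi1 and Pgam1 and the lactate transporters Slc16a1 and Slc16a3, and the 2 are Aldoa and Taldo1. These counts moved with single libraries: the 7 became 4 without rmMETRNL library 2, the 2 lower became 0 without vehicle library 3 or without rmMETRNL library 3, and the 2 below became 6 without rmMETRNL library 1. The median difference was 0.02 over the tested members and -0.0056 over all genes tested. Between the 3 samples of a group the members varied little, with a median coefficient of variation of 4.28% with vehicle and 4.503% with rmMETRNL. In bulk samples, fewer cells of a type and less RNA per cell cannot be told apart.

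**Figure D1:**
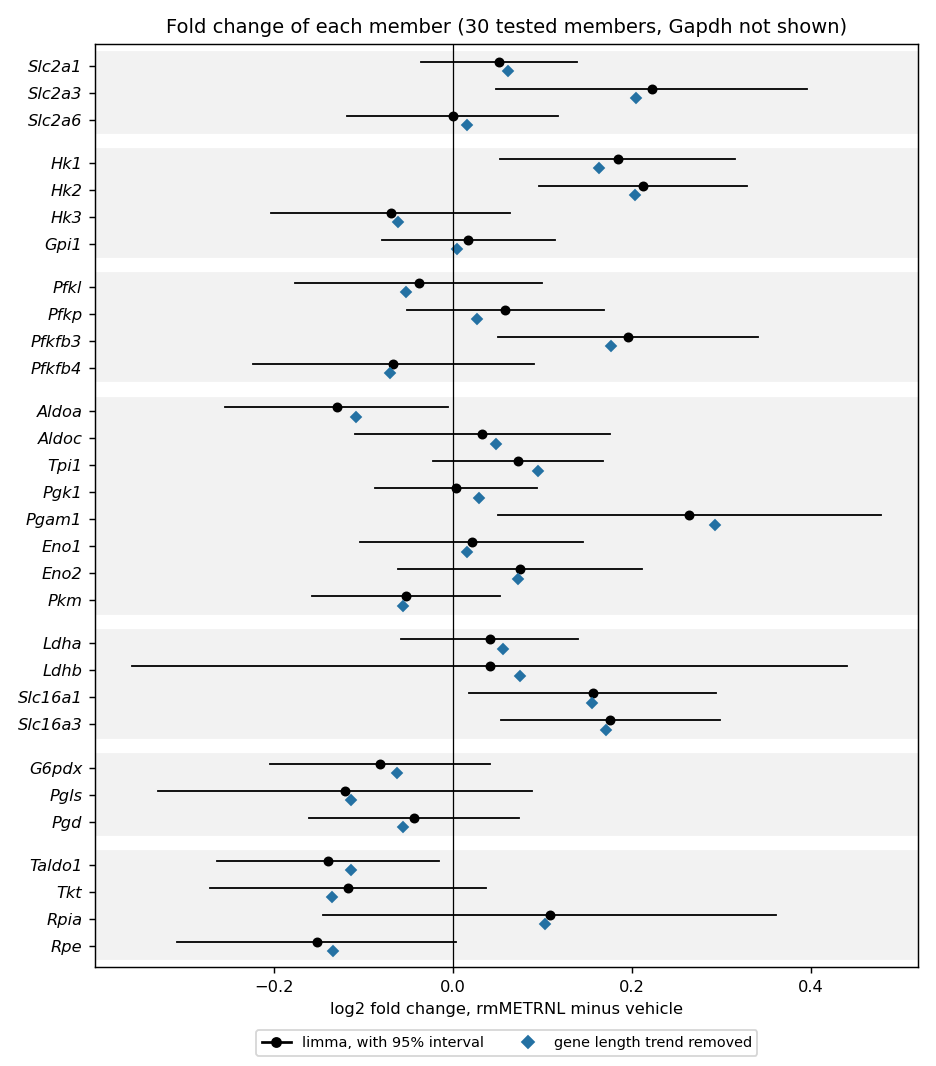
Log2 fold change on the log2(FPKM + 1) scale, rmMETRNL minus vehicle, of 30 tested members (Gapdh is left out for its wide interval), in the order of the pathway. Black points and lines are the limma estimate and its 95% interval, and blue diamonds the estimate with the length trend removed. The intervals of Slc2a3, Hk1, Hk2, Pfkfb3, Pgam1, Slc16a1 and Slc16a3 lie above 0 and those of Aldoa and Taldo1 under 0, before any adjustment for the number of genes tested.

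The promoters shown are those of the 4 members with the smallest limma p. They belong to the entry, regulatory and export steps, where HIF-1 is known to bind in many cells. Letters are from RefSeq (GRCm38.p6), 250 bases up to the start site, 5′ to 3′ along the gene, and capitals mark ACGTG or GCGTG, the core of the hypoxia response element, on either strand. In all 4 genes the 3 rmMETRNL libraries lay above the vehicle libraries. The genes were picked by p in these same data, so this is not a separate result. The Pfkfb3 window lies inside the annotated gene, at the start of its principal transcript. Hk1 is shown with both start sites: the window nearest the first base of the principal transcript, and one 39487 bases downstream of it. Pfkfb3 also has a further window, 51828 bases upstream of its principal transcript start, which held 1 match, at -60, and is not shown.
Hk2 (chr6:82774455-82774704, minus strand): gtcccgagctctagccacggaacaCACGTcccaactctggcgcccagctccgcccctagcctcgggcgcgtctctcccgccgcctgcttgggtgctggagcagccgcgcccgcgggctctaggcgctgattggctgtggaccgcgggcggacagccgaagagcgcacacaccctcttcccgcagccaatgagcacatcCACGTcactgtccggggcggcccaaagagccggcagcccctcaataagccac
Slc16a3 (chr11:120948817-120949066, plus strand): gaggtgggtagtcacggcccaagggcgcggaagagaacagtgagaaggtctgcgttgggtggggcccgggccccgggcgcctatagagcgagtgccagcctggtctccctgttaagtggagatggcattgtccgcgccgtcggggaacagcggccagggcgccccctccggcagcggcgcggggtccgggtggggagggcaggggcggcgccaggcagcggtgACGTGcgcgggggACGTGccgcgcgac
Pfkfb3 (chr2:11502091-11502340, minus strand): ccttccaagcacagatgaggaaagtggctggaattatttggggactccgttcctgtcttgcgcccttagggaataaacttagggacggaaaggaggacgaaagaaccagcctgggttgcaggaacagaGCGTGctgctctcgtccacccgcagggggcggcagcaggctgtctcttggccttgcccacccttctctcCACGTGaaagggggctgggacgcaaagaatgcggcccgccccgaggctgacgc
Hk1 upstream start (chr10:62379909-62380158, minus strand): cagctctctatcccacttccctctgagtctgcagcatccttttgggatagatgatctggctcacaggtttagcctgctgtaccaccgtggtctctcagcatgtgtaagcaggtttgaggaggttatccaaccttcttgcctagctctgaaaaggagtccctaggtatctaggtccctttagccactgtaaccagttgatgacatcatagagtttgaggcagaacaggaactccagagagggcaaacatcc
Hk1 downstream start (chr10:62340422-62340671, minus strand): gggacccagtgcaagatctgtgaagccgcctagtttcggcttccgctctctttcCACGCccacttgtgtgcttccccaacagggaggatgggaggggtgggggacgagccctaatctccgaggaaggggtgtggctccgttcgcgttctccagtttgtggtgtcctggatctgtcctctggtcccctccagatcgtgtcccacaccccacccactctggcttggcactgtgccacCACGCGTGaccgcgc
The Hk2 window held 2 matches, starting at positions -226 and -52 from the start site, and the Slc16a3 window 2, at -27 and -14. In the Pfkfb3 window 3 matches were counted, of which 2 overlap in 1 palindromic CACGTG. For Hk1 the upstream window held 0 matches and the downstream window 3, of which 2 overlap. Of the 33 members 32 had an entry, all but Slc2a3, and 26 of these 32 (81.3%) held at least 1 match, compared with 12679 of all 32851 windows of the same length (38.6%). At least 2 matches were present in 12 members (37.5%) and in 16.7% of all windows. Nearest windows held 4 matches for Slc16a1 and Slc2a6, 3 for Pgam1 and Pfkp, 1 for Aldoa and Taldo1 and 0 for Tpi1. Of these, Slc16a1, Pgam1 and Tpi1 lay above the vehicle range, Aldoa and Taldo1 under it, and Slc2a6 and Pfkp overlapped it. A relation between matches and differences was not tested. Members enter with the 1 window nearest their principal transcript and all windows of all genes enter the background, which was not matched for base composition. A match describes the letters of a window and was not measured as a binding site here.

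Transcripts of glucose entry were almost wholly those of Slc2a1, the main glucose transporter of activated macrophages, and its level stood slightly higher with rmMETRNL. Slc2a1 (ENSMUSG00000028645, chr4:119108711-119137983, GRCm38) was at 853, 825 and 842 FPKM in vehicle libraries 1, 2 and 3 and 858, 877 and 876 FPKM in rmMETRNL libraries 1, 2 and 3. The ranges did not overlap, but the gap between the highest vehicle and the lowest rmMETRNL library was narrow. The difference was 0.05 (SE 0.04, 95% interval -0.04 to 0.14, limma adjusted p = 0.561). Slc2a3, a high-affinity glucose transporter gene (ENSMUSG00000003153, chr6:122727809-122801640, GRCm38), was low, at 2.89, 2.54 and 2.89 FPKM with vehicle and 3.24, 3.61 and 3.35 FPKM with rmMETRNL. Each rmMETRNL library was above each vehicle library, with a difference of 0.22 (SE 0.07, limma adjusted p = 0.278). Slc2a6, a hexose transporter of lysosomal membranes, was at 26.1, 23.95 and 24.7 FPKM with vehicle and 25.4, 24.9 and 24.5 FPKM with rmMETRNL, with overlapping ranges. Of the FPKM summed over these 3 transporters, Slc2a1 held 96.8% ± 0.0898 with vehicle and 96.8% ± 0.0782 with rmMETRNL (SD, n = 3 each).

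**Figure D2:**
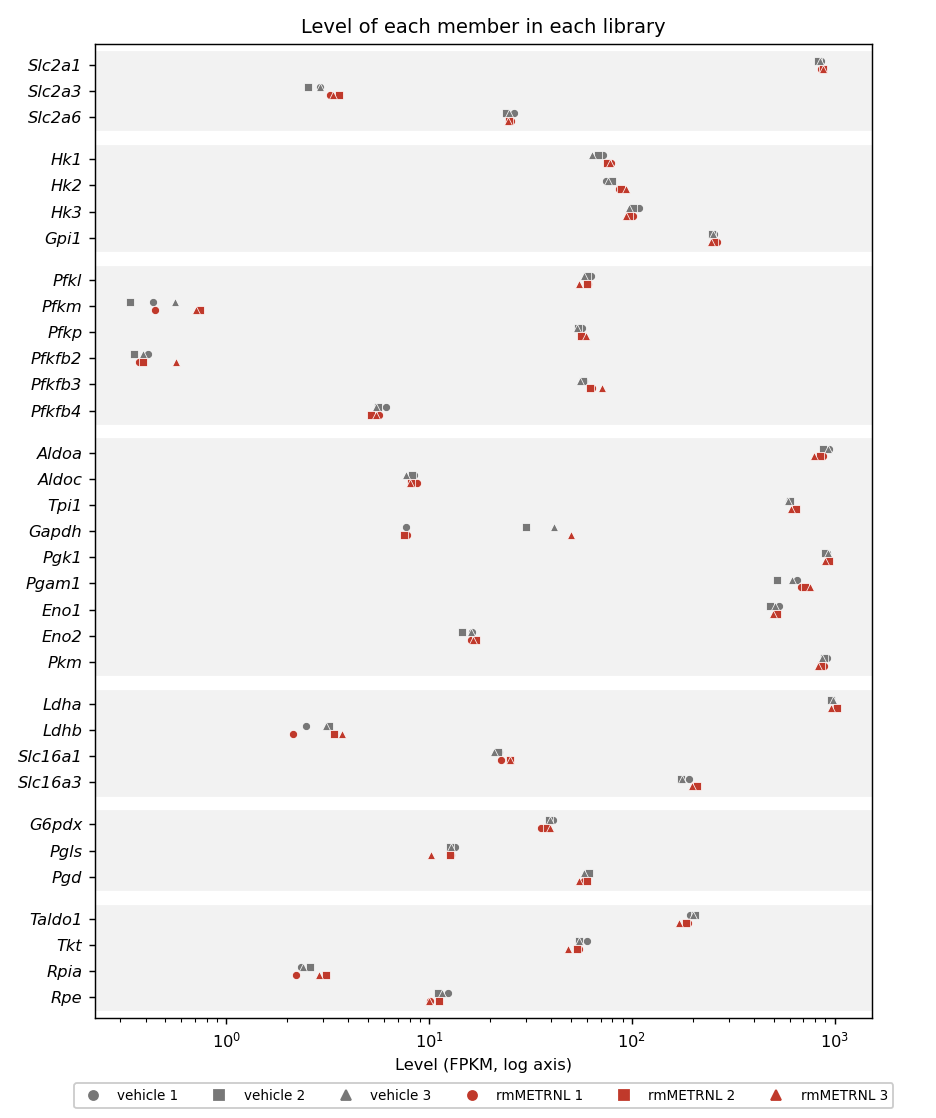
FPKM of each of the 33 members in every library, on a log axis, in the order of the pathway, with vehicle libraries in grey, rmMETRNL libraries in red and 1 symbol per library number. Levels span from under 1 FPKM (Pfkm, Pfkfb2) to above 900 FPKM (Ldha), and Gapdh is the member whose libraries lie farthest apart within a group.

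Hexokinases trap glucose in the cell as glucose phosphate, and the differences of their 3 genes lay on both sides of 0. Hk2, the inducible isozyme (ENSMUSG00000000628, chr6:82725025-82774454, GRCm38), was at 74.8, 79.99 and 75.9 FPKM in vehicle libraries 1, 2 and 3 and 86.6, 88.05 and 93.1 FPKM in rmMETRNL libraries 1, 2 and 3. The groups were clearly apart, and the difference of 0.21 (SE 0.05, 95% interval 0.10 to 0.33) had the smallest p of all members (limma adjusted p = 0.216). Over the alternatives run, the Hk2 difference was 0.18 to 0.24, with adjusted p from 0.0888 to 0.403. Hk1, the broadly expressed isozyme (ENSMUSG00000037012, chr10:62268855-62379908, GRCm38), was at 72.02, 68.4 and 63.8 FPKM with vehicle and 78.7, 75.2 and 78.3 FPKM with rmMETRNL. Its ranges did not overlap either, and the difference was 0.18 (SE 0.06, limma adjusted p = 0.254). Hk3, the isozyme typical of myeloid cells (ENSMUSG00000025877, chr13:55005985-55021385, GRCm38), lay the other way, at 108, 101 and 96.6 FPKM with vehicle and 101, 96.8 and 93.4 FPKM with rmMETRNL. Its ranges overlapped and the difference was -0.07 (SE 0.06, limma adjusted p = 0.608).

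As a share of the summed hexokinase FPKM, which cancels any scaling between libraries, Hk3 made up 42.4, 40.5 and 40.9% with vehicle and 37.9, 37.2 and 35.3% with rmMETRNL. All 3 rmMETRNL shares of Hk3 were under all 3 vehicle shares, a mean of 41.3% ± 1.002 against 36.8% ± 1.36 (SD, n = 3). The share of Hk2 was 29.4, 32.1 and 32.1% with vehicle and 32.6, 33.9 and 35.2% with rmMETRNL, and that of Hk1 was 28.3, 27.4 and 26.98% with vehicle and 29.6, 28.9 and 29.6% with rmMETRNL. Both were above the vehicle range in all rmMETRNL libraries. Gene lengths in the table count all exons of a gene, and with the length of the principal coding transcript in their place the order of the isozymes changed. Hk1 then held 42.99% with vehicle and 45.2% with rmMETRNL, Hk3 33.2% and 29.3%, and Hk2 23.8% and 25.5%. On that length the groups still did not overlap for Hk1 and Hk3 but did for Hk2. Gpi1, the isomerase that makes fructose phosphate, was at 255, 247 and 252 FPKM with vehicle and 262, 255 and 247 FPKM with rmMETRNL, with overlapping ranges and a difference of 0.02 (limma adjusted p = 0.881).

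**Figure D3:**
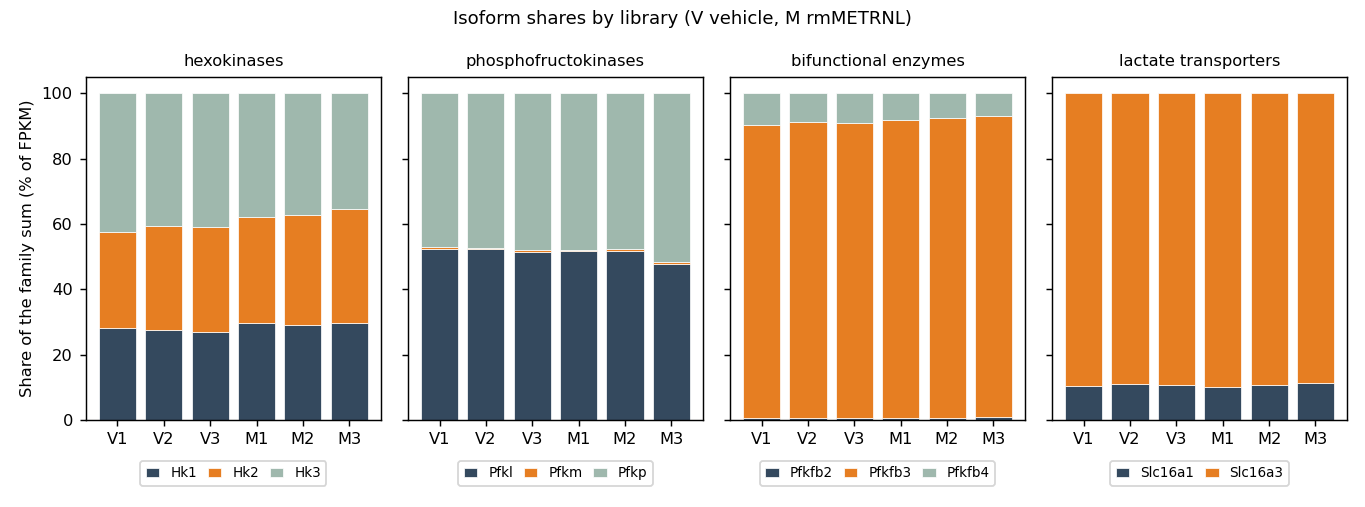
Stacked bars give the share of each isozyme or subunit in the summed FPKM of its family, in percent, for vehicle libraries (V1 to V3) and rmMETRNL libraries (M1 to M3). Hk3 takes a smaller share and Hk1 and Hk2 a larger one in all 3 rmMETRNL libraries than in the vehicle libraries, and Pfkfb4 takes a smaller share beside Pfkfb3, while the lactate transporter shares overlap.

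Phosphofructokinase commits sugar to glycolysis, and the bifunctional enzymes encoded by the Pfkfb genes make and remove its strongest activator. Pfkfb3, the isoform with the greatest kinase over phosphatase activity (ENSMUSG00000026773, chr2:11471433-11554077, GRCm38), was at 58.2, 57.7 and 55.6 FPKM in vehicle libraries 1, 2 and 3 and 63.4, 62.3 and 71.3 FPKM in rmMETRNL libraries 1, 2 and 3. All rmMETRNL libraries were above all vehicle libraries, with library 3 the highest, and the difference was 0.20 (SE 0.06, 95% interval 0.05 to 0.34, limma adjusted p = 0.263). With the trend of each library with gene length removed, the Pfkfb3 difference was 0.18. Pfkfb4, a further isoform, was low, at 6.16, 5.57 and 5.47 FPKM with vehicle and 5.69, 5.15 and 5.45 FPKM with rmMETRNL, with overlapping ranges and a difference of -0.07 (limma adjusted p = 0.683). Its share of the summed bifunctional enzyme FPKM was 9.52, 8.76 and 8.91% with vehicle and 8.18, 7.59 and 7.05% with rmMETRNL, and the groups did not overlap. Pfkfb2 stayed under 1 FPKM in every library and was not tested.

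Transcripts of the kinase itself came mainly from 2 genes at similar levels. Pfkl, the liver-type subunit, was at 62.8, 59.9 and 57.7 FPKM with vehicle and 60.6, 60.4 and 54.8 FPKM with rmMETRNL, a difference of -0.04 (limma adjusted p = 0.804). Pfkp, the platelet-type subunit, was at 56.5, 54.5 and 53.7 FPKM with vehicle and 56.3, 55.8 and 59.6 FPKM with rmMETRNL, a difference of 0.06 (limma adjusted p = 0.601). Both ranges overlapped between groups. In rmMETRNL library 3 Pfkl was the lowest and Pfkp the highest of the 6 libraries. The deposited gene length of Pfkp is 13401 bases, the longest of the members, so Pfkp is among the genes that the length relation of that library touches, and with the trend removed its difference was 0.03. Pfkm, the muscle-type subunit, was between 0.336 and 0.744 FPKM and was not tested. Over the 13 genes from glucose entry to this step, 11 were tested, 5 had groups that did not overlap with rmMETRNL above, against 10.9% of all genes, and 0 had rmMETRNL below, against 10.6%.

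The differences of the genes of lower glycolysis, from aldolase to pyruvate kinase, lay on both sides of 0. Aldoa, the main aldolase, which splits fructose bisphosphate (ENSMUSG00000030695, chr7:126795234-126800751, GRCm38), was at 942, 879 and 931 FPKM in vehicle libraries 1, 2 and 3 and 876, 845 and 794 FPKM in rmMETRNL libraries 1, 2 and 3. The highest rmMETRNL library was just under the lowest vehicle library, with a difference of -0.13 (SE 0.05, 95% interval -0.25 to -0.0049, limma adjusted p = 0.328). With each library's length trend removed the Aldoa difference was -0.11. Pgam1, the mutase that moves the phosphate group before enolase (ENSMUSG00000011752, chr19:41911871-41918664, GRCm38), was at 655, 521 and 614 FPKM in vehicle libraries 1, 2 and 3 and 679, 710.4 and 753 FPKM in rmMETRNL libraries 1, 2 and 3. Its difference was 0.26 (SE 0.09, 95% interval 0.05 to 0.48, limma adjusted p = 0.287), and its spread was wide, with vehicle library 2 well under the other 5. Without that library the Pgam1 difference was 0.17. Tpi1, which interconverts the 2 triose phosphates, was at 597, 603 and 589 FPKM with vehicle and 632, 643 and 606 FPKM with rmMETRNL, a difference of 0.07 without overlap (limma adjusted p = 0.453). In these libraries Aldoa thus stood under the vehicle range and Tpi1 and Pgam1 above it.

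The other enzymes of this stretch showed overlapping groups. Pgk1, which makes the first ATP of the pathway, was at 920.2, 899 and 932 FPKM with vehicle and 922, 936 and 900.2 FPKM with rmMETRNL, a difference of 0.0037 (SE 0.04). Pkm, the pyruvate kinase gene, was at 917, 884 and 863 FPKM with vehicle and 884, 856 and 829 FPKM with rmMETRNL, a difference of -0.05 (limma adjusted p = 0.624). FPKM per gene does not separate the M1 and M2 splice forms of Pkm. Eno1, the main enolase, was at 533, 477 and 507 FPKM with vehicle and 522, 520.4 and 496 FPKM with rmMETRNL, a difference of 0.02. The minor isozymes Eno2 (15.6 ± 0.923 and 16.5 ± 0.405 FPKM, mean ± SD with vehicle and rmMETRNL) and Aldoc (8.11 ± 0.411 and 8.33 ± 0.375 FPKM) added little to their steps. Beside the lower Aldoa, the share of Aldoc in summed aldolase FPKM was 0.890, 0.928 and 0.816% with vehicle and 0.989, 0.956 and 1.004% with rmMETRNL, without overlap.

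Gapdh, the dehydrogenase of the middle step and a common reference gene, behaved unlike every other member. It was at 7.65, 30.1 and 41.4 FPKM in vehicle libraries 1, 2 and 3 and 7.77, 7.48 and 49.9 FPKM in rmMETRNL libraries 1, 2 and 3, far under its pathway neighbours Pgk1 and Tpi1. In each group some libraries were near 7 to 8 FPKM and others between 30 and 50, so the groups overlapped and the difference of -0.53 had an SE of 0.85, the largest of all members (limma adjusted p = 0.817). Of the 31-base words of its principal transcript, 84.1% also occur in other genes, and 114 other genes, called its copies here, share more than 10% of them. One of these, Gm7336, was at 45.6, 3.46 and 34.9 FPKM in the vehicle libraries and 34.3, 41.2 and 38.9 FPKM in the rmMETRNL libraries. Of the reads summed over Gapdh and the 114 copies, the Gapdh entry held 16.97, 53.6 and 54.4% with vehicle and 18.8, 18.5 and 62.2% with rmMETRNL. Even summed with its copies, Gapdh took 0.0166% to 0.0330% of a library's reads, and the summed difference was -0.17 (SE 0.30, limma adjusted p = 0.831). The level of Gapdh in the table is therefore uncertain, and no direction is given for it.

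**Figure D4:**
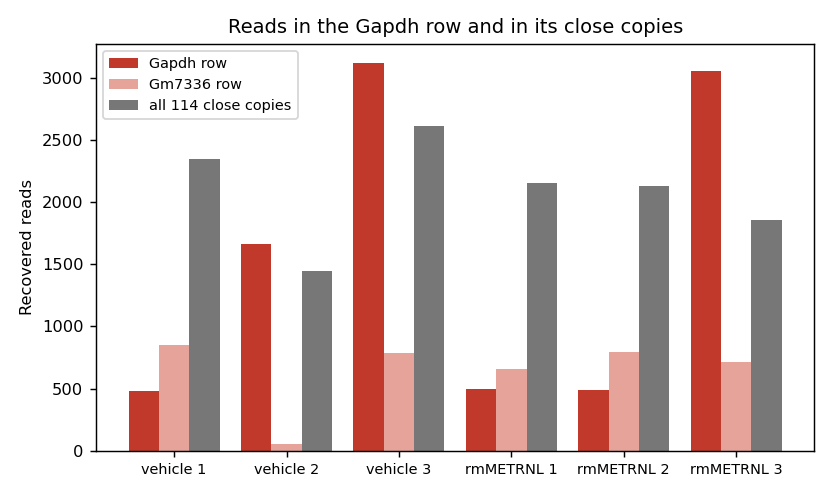
Recovered reads in the Gapdh entry (red), in the Gm7336 entry (pink) and summed over all 114 close copies, Gm7336 among them (grey), as bars for each library. Gapdh holds 479 to 3115 reads, with low and high libraries in both groups, and the copies sum to 1442 to 2615 reads.

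Other members also have near-identical copies, and in total 15 of the 33 members share more than 10% of their 31-base words with another gene. The shares were 77.2% for Eno1, 68.3% for Pgk1, 50.9% for Pkm, 42.1% for Pgam1, 35.1% for Ldha and 35.04% for Aldoa, so their levels are uncertain where counting could split reads. When the reads of its copies were added, Pgam1 differed by 0.26, the same value to the digits shown as without them. The gene that shares words with Rpe is Kansl1l, a protein-coding gene on the other strand with overlapping exons, and not a copy. With all Kansl1l reads added, the Rpe difference moved from -0.15 to -0.10 (limma adjusted p = 0.444), and the groups then did not overlap. That sum mixes both genes and is not a result about Rpe alone. The only gene with over 10% of the Aldoa words, Aldoart1 (13.9%), was at 0 in all libraries, so the Aldoa sum could not differ. Genes that share fewer words with Aldoa were not added. For Hk1, Hk2, Hk3, Pfkfb3, Slc2a3, Slc16a1 and Slc16a3 under 1% of words occurred elsewhere. Counting overlap on either strand, 7 members share over 10% of their exon bases with overlapping genes. For Pgls (20.6%), Pkm, Pfkm and Pfkfb2 the main overlapping gene is on the same strand, so strand would not separate the shared reads. For Rpe (17.9%), G6pdx (13.6%) and Gpi1 it is on the other strand. Reads of those pairs cannot be told apart without a stated strand setting.

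At the end of the pathway the lactate transporter genes stood higher with rmMETRNL, while the dehydrogenase that feeds them was nearly level. Slc16a3, the exporter of glycolytic cells (ENSMUSG00000025161, chr11:120948480-120960868, GRCm38), was at 192, 175 and 176 FPKM in vehicle libraries 1, 2 and 3 and 205, 210.5 and 198 FPKM in rmMETRNL libraries 1, 2 and 3. No library overlapped with the other group, and the difference was 0.18 (SE 0.05, 95% interval 0.05 to 0.30, limma adjusted p = 0.250). Slc16a1, the widely expressed monocarboxylate transporter (ENSMUSG00000032902, chr3:104638668-104658462, GRCm38), was at 22.1, 21.8 and 20.97 FPKM with vehicle and 22.5, 25.1 and 25.1 FPKM with rmMETRNL. rmMETRNL library 1 was close to the vehicle libraries and the other 2 were higher, a difference of 0.16 (SE 0.06, limma adjusted p = 0.312). Slc16a3 held 89.3% ± 0.381 of the FPKM of these 2 transporters with vehicle and 89.4% ± 0.665 with rmMETRNL (SD, n = 3), with overlapping ranges.

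Ldha, the dehydrogenase subunit that favours lactate formation, was the most abundant member, at 962, 962 and 981 FPKM with vehicle and 1003, 1028 and 959.6 FPKM with rmMETRNL. rmMETRNL libraries 1 and 2 were above the vehicle range and library 3 was under it, and the difference was 0.04 (SE 0.04, limma adjusted p = 0.686). Ldhb, the other subunit, was at 2.48, 3.19 and 3.11 FPKM with vehicle and 2.13, 3.41 and 3.74 FPKM with rmMETRNL and scattered within both groups, with a difference of 0.04 (SE 0.17). Ldha made up 99.7% of the summed subunit FPKM with vehicle and 99.7% with rmMETRNL. Next in level to Ldha came Pgk1, Aldoa, Pkm and Slc2a1, whose mean levels over the 6 libraries ran from 918 down to 855 FPKM. The ranges over the libraries did not overlap between Ldha and Pgk1 but did between each neighbouring pair from Pgk1 to Slc2a1. With principal transcript lengths Eno1 moved from rank 8 to rank 4 and Slc2a1 from rank 5 to rank 7, so the order of levels depends on the length used.

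In the pentose phosphate branch 6 of 7 tested genes had a negative difference, where 48.4% of all genes tested had a positive one. Groups did not overlap in 1 of the 7 (14.3%), Taldo1, which is near the 10.6% of all genes with rmMETRNL below. Taldo1, transaldolase of the non-oxidative arm (ENSMUSG00000025503, chr7:141392199-141402968, GRCm38), was at 194, 205 and 199.96 FPKM in vehicle libraries 1, 2 and 3 and 189, 185 and 170.2 FPKM in rmMETRNL libraries 1, 2 and 3. Every rmMETRNL library was under every vehicle library, with library 3 the lowest, and the difference was -0.14 (SE 0.05, 95% interval -0.26 to -0.01, limma adjusted p = 0.314). With the length trend removed the Taldo1 difference was -0.11. Its partner transketolase, Tkt, was at 60.1, 54.6 and 55.1 FPKM with vehicle and 54.6, 53.4 and 48.3 FPKM with rmMETRNL, a difference of -0.12 (limma adjusted p = 0.453), with ranges that met at vehicle library 2 and rmMETRNL library 1. Rpe, the ribulose phosphate epimerase, was at 12.4, 11.1 and 11.6 FPKM with vehicle and 10.1, 11.2 and 10.03 FPKM with rmMETRNL, a difference of -0.15 (limma adjusted p = 0.349). Rpia, the ribose phosphate isomerase, was low and the only member of the branch with a positive difference, 0.11 (SE 0.11), at 2.44 ± 0.141 and 2.72 ± 0.462 FPKM (SD, n = 3).

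In the oxidative arm all 3 genes had a negative difference and overlapping groups. G6pdx, glucose phosphate dehydrogenase, which opens the arm and makes NADPH, was at 40.99, 39.2 and 39.5 FPKM with vehicle and 35.6, 38.2 and 39.3 FPKM with rmMETRNL, a difference of -0.08 (SE 0.05, limma adjusted p = 0.511). Pgls, the lactonase, was at 13.4, 12.7 and 12.8 FPKM with vehicle and 12.8, 12.6 and 10.2 FPKM with rmMETRNL, a difference of -0.12 (SE 0.09) that came mainly from rmMETRNL library 3. Pgd, the dehydrogenase of the last oxidative step, was at 59.2, 61.1 and 58.01 FPKM with vehicle and 58.2, 59.9 and 54.9 FPKM with rmMETRNL, a difference of -0.04 (SE 0.05).

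**Figure D5:**
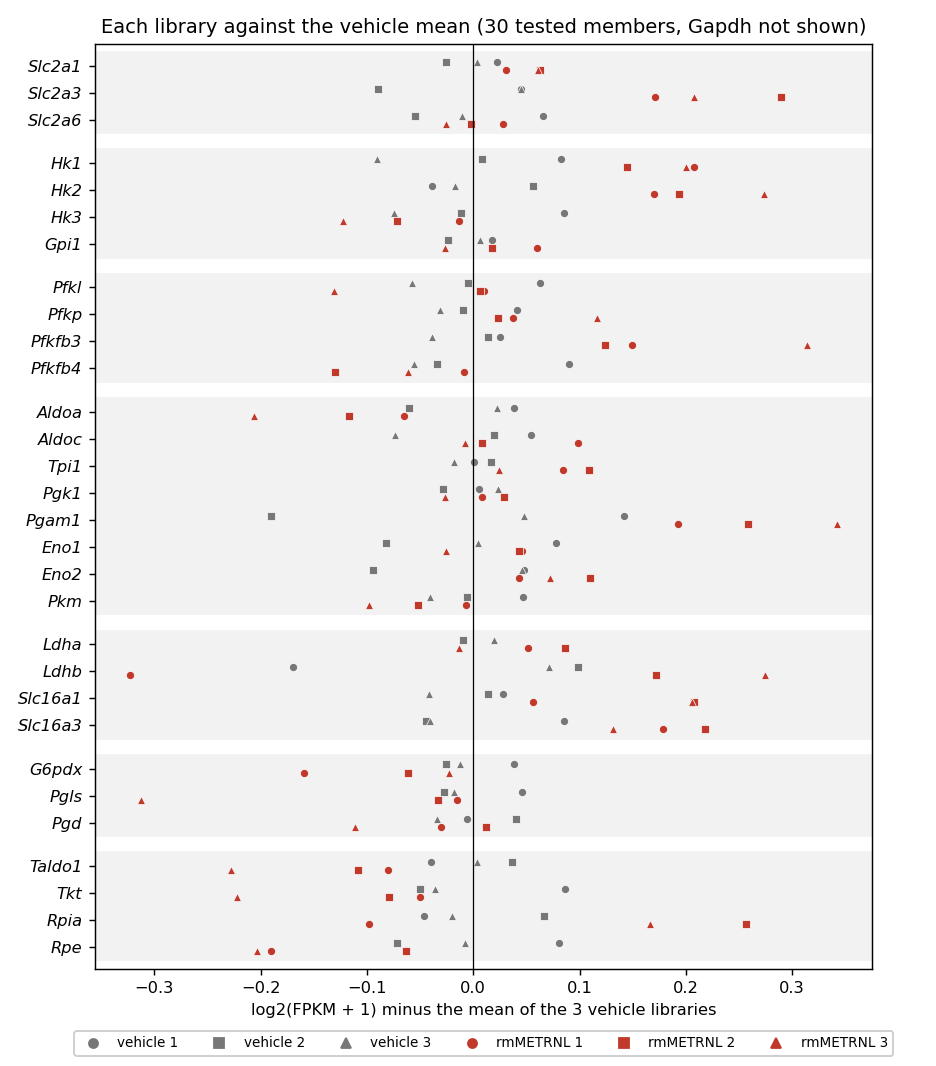
Deviation of 30 tested members (without Gapdh) from the mean of the 3 vehicle libraries in log2(FPKM + 1), with vehicle libraries in grey, rmMETRNL libraries in red and 1 symbol per library number. All 3 rmMETRNL libraries lie above 0 for Slc2a1, Slc2a3, Hk1, Hk2, Pfkp, Pfkfb3, Tpi1, Pgam1, Eno2, Slc16a1 and Slc16a3. All 3 lie under 0 for Hk3, Pfkfb4, Aldoa, Pkm and most pentose phosphate genes (G6pdx, Pgls, Taldo1, Tkt and Rpe).

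Median differences by step, as descriptions without a test, were 0.05 for glucose entry (3 of 3 positive), 0.10 for hexokinases and isomerase (3 of 4), 0.01 for phosphofructokinases and bifunctional enzymes (2 of 4) and 0.02 for lower glycolysis (6 of 9). They were 0.10 for lactate formation and transport (4 of 4), -0.08 for the oxidative arm (0 of 3) and -0.13 for the non-oxidative arm (1 of 4). The phosphofructokinase median ran from -0.012 to 0.036 and that of lower glycolysis from -0.010 to 0.060 when each library was left out in turn, negative without vehicle library 3 and without vehicle library 2 respectively, and with the length trend removed the former was -0.012, so no direction is given for either. These medians rest on few genes: without the members that share words with other genes, the hexokinase median was 0.18, that of the phosphofructokinase step -0.038 and that of the non-oxidative arm -0.0045. Without rmMETRNL library 1 the lactate median was 0.19, and without rmMETRNL library 3 the oxidative median was -0.024.

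Sums of FPKM over a step weight each gene by its level. Glucose entry summed to 882, 851 and 869 FPKM with vehicle and 886, 906 and 904 FPKM with rmMETRNL, 3.58% higher on average. The lactate step summed to 1178, 1162 and 1181 FPKM with vehicle and 1233, 1267 and 1187 FPKM with rmMETRNL, 4.68% higher. Both sums had no overlap between groups, with single large genes, Slc2a1 and Ldha, setting most of each. The gaps were narrow, from 882 to 886 FPKM for glucose entry and from 1181 to 1187 FPKM for the lactate step. Ldha itself had overlapping groups. Sums of hexokinases with Gpi1 were 3.99% higher, and of the phosphofructokinase step 5.18% higher, again without overlap. The hexokinase gap was narrow as well, from 509.4 FPKM in the highest vehicle library to 511.6 FPKM in the lowest rmMETRNL library. For the phosphofructokinase step the gap was narrower still, from 184.5 FPKM in the highest vehicle library to 184.8 FPKM in the lowest rmMETRNL library. Most of that step's rise was Pfkfb3, with means of 57.1 FPKM with vehicle and 65.7 FPKM with rmMETRNL, so no direction is given for the step as a whole. Lower glycolysis summed to 4471 ± 142 FPKM with vehicle and 4515 ± 52.6 FPKM with rmMETRNL (SD, n = 3), with overlap. The non-oxidative arm summed to 269, 273 and 269 FPKM with vehicle and 255, 253 and 231 FPKM with rmMETRNL, a mean difference of -8.78% without overlap, most of it Taldo1. The oxidative arm summed to 114, 113 and 110.3 FPKM with vehicle and 107, 111 and 104 FPKM with rmMETRNL, with overlap.

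Genes next to these pathways, from a list of 71 of which 45 were tested, gave no call either: limma called 0 at an adjusted p of 0.05, the lowest being 0.189, with 4 higher (8.89%, against 7.54% of all genes) and 3 lower (6.67%, against 7.13%) at an unadjusted p of 0.05. By voom 0 were called as well. Signs were even, with 22 positive and 23 negative differences. Groups did not overlap in 5 with rmMETRNL above (Pgm2, Gbe1, Gys1, Txnip and Prps2, the last named after its values were seen) and in 3 with rmMETRNL below (Pgm1, Pgm3 and Sord). These are 11.1% and 6.67% of the 45, near or under the 10.9% and 10.6% of all genes. Genes of glycogen and hexose phosphate handling made up 5 of these 8, in both directions. Of the 10 tested in that list, 3 lay above (30%, against 10.9% of all genes) and 2 below (20%, against 10.6%). Pgm2, a phosphoglucomutase gene, was at 52.1, 54.3 and 53.1 FPKM with vehicle and 60.96, 60.1 and 61.7 FPKM with rmMETRNL, a difference of 0.19 (limma adjusted p = 0.189). Pgm1, another, lay the other way at 16.5, 16.4 and 17.03 FPKM with vehicle and 14.7, 13.6 and 14.9 FPKM with rmMETRNL, a difference of -0.20 (limma adjusted p = 0.238). Current and older mouse gene names have exchanged these 2 symbols, so each is given as the table has it (ENSMUSG00000025791 for Pgm2 and ENSMUSG00000029171 for Pgm1).

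On the higher side were also Gbe1, the glycogen branching enzyme, by 0.18 (23.2 ± 0.911 and 26.4 ± 0.699 FPKM, mean ± SD with vehicle and rmMETRNL) and Gys1, glycogen synthase, by 0.17 (32.3 ± 0.211 and 36.4 ± 1.43 FPKM), with limma adjusted p of 0.238 and 0.239. Txnip, which restrains glucose uptake, was at 4.65, 4.504 and 4.11 FPKM with vehicle and 4.78, 6.41 and 7.103 FPKM with rmMETRNL, a difference of 0.38 (limma adjusted p = 0.287), with rmMETRNL library 1 close to the vehicle range. On the other side were Sord, sorbitol dehydrogenase (-0.25), Prps1, which makes the activated ribose for nucleotides (-0.24), and Pgm3, an acetylglucosamine phosphate mutase (-0.15), with limma adjusted p between 0.263 and 0.358. Hif1a, the oxygen-sensing subunit of HIF-1, was at 79.97, 75.6 and 85.2 FPKM with vehicle and 76.4, 85.2 and 91.6 FPKM with rmMETRNL, a difference of 0.07 with overlap. Bsg, the chaperone of the lactate transporters, was at 497, 524 and 514 FPKM with vehicle and 513, 518 and 477 FPKM with rmMETRNL, a difference of -0.03. Pdk1, which holds pyruvate back from mitochondria, differed by 0.08, and Tigar, which diverts sugar toward the pentose branch, by -0.04, both with overlapping groups.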

How the data were processed

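RNA-seq of 6 mouse macrophage samples was used. The authors deposited 1 table of FPKM values per gene and library, with gene lengths. Builds named in the submitters' processing notes are GRCm38 and mm10. Which aligner, counter, annotation release and strand setting were used is not given in the sources used here. Every FPKM value was a whole number of reads (100%, tolerance 0.05 reads) times 1 step per library. The library scaling equalled median-of-ratios factors, so that alternative changes nothing. Of the members, 32 of 33 had the coordinates of GENCODE M21, which served for sequence words.

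The test was limma 3.58.1 (R 4.3.3) on log2(FPKM + 1) of the 9867 genes whose mean reached 1 FPKM, with all 6 libraries, no block, Benjamini-Hochberg threshold 0.05. The fit was tested on simulated data. Alternatives were pseudocount 0.1, no filter, at least 5 FPKM, TPM, length trend removed, voom, a replicate block and leaving out each library. Named were all members and, of neighbouring genes, 4 in each direction by smallest p plus Hif1a, Bsg, Pdk1 and Tigar. Members and lists were chosen with earlier results of these data known.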

Additional observations from a re-analysis of the deposited data

How the results depend on the processing

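No member was called at an adjusted p of 0.05 in any of the 15 other fits run, and no neighbouring gene either. Of 639 gene values under alternatives, 621 kept their sign and 18 reversed, in 9 genes whose reported difference was at most 0.04 in size. Many of the 621 could not have changed sign. A changed filter, the replicate block and median-of-ratios scaling leave a gene's difference as it was, or nearly so. Summing copies does the same for genes without copies. The 621 are therefore not a measure of how stable the signs are. By voom Slc2a6 was -0.0096 and Pgk1 -0.0059, and with the length trend removed Bsg was 0.0029. Leaving out each library in turn gave ranges of -0.027 to 0.033 for Slc2a6, -0.0042 to 0.039 for Gpi1, -0.067 to 0.0082 for Pfkl, -0.0034 to 0.060 for Aldoc, -0.010 to 0.019 for Pgk1, -0.020 to 0.060 for Eno1, -0.076 to 0.22 for Ldhb, -0.048 to 0.011 for Bsg and -0.10 to 0.019 for Tigar.

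Members higher at an unadjusted p of 0.05 were 7, and 4 to 8 without 1 library (4 without rmMETRNL library 2). Members lower were 2, and 0 to 2 without 1 library (0 without vehicle library 3 or without rmMETRNL library 3, 1 without vehicle library 1 or rmMETRNL library 2). Members with rmMETRNL below without overlap were 2, but 5 by voom and 2 to 6 without 1 library (5 without vehicle library 2, 4 without vehicle library 3, 6 without rmMETRNL library 1). Medians without members sharing over 10% of words, chosen after seeing the data, were 0.18 for hexokinases, -0.038 for phosphofructokinases and -0.0045 for the non-oxidative arm. Without 1 library the lactate median ran from 0.075 to 0.19 and the oxidative median from -0.094 to -0.024. The cause of these shifts was not tested. Summing close copies, leaving out Gapdh and using principal transcript lengths were also chosen after seeing the data.

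The replicate block gave 5 members higher and 1 lower at an unadjusted p of 0.05 and 0 calls. Same-numbered libraries did not deviate together (correlations -0.0212, 0.0074 and -0.0454), so the numbers were not taken to pair samples. Depth limits the low genes: at 1 kb, 1 FPKM is 13.4 to 18.2 reads.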

Other observations

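A second gene model named Aldoa (ENSMUSG00000114515, chr7:126800790-126809108, GRCm38) lies next to the aldolase gene on the side of its start. It was at 0.413, 0.0936 and 0.275 FPKM in the vehicle libraries and 0.322, 0.319 and 0.844 FPKM in the rmMETRNL libraries, under the minimum for testing, with rmMETRNL library 3 the highest of the 6.

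Copies of members in the table differed widely in level. Eno1b, which shares 75.6% of the 31-base words of Eno1, was at 38.4, 54.97 and 36.2 FPKM with vehicle and 38.96, 39.3 and 37.2 FPKM with rmMETRNL. Pgam1-ps2, which shares 42.1% of the words of Pgam1, was at 14.9, 15.5 and 19.02 FPKM with vehicle and 20.4, 19.1 and 19.2 FPKM with rmMETRNL. These copies were chosen for naming after their values were seen.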
